A study of Homo sapiens with 6 samples.

Results

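A group of 9 chemokines that keratinocytes can make and the scavenging receptor ACKR3 were followed in HaCaT cells, an immortalized human keratinocyte line. The members were CXCL1, CXCL2, CXCL3, CXCL5, CXCL8, CXCL14, CXCL16, CCL20, CCL2 and ACKR3, found by symbol through their Ensembl identifiers, which gave 10 of the 20014 genes in the deposited table. Poly(A)-selected RNA was sequenced from 3 libraries labelled STUB1 knockout and 3 labelled control, whose genotype label reads WT. Both groups received a lentiviral CRISPR vector, with a guide against STUB1 (lentiCRISPR v2-pX330-sgSTUB1) in the knockout and with sgControl in the control, and the labels state no special treatment. STUB1, also called CHIP, is a ubiquitin ligase that works with heat shock chaperones, and the series title sets it beside the ectodysplasin receptor EDAR and NF-kB. Colonies grown from sorted cells were screened for the STUB1 protein. Nothing in the labels tells if a group's libraries were grown from 1 clone or from several, nor if they were separate cultures. The p-values therefore cover library-to-library spread alone, and that spread may be technical.

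Chemokines are small secreted proteins that attract leukocytes by binding receptors of the G-protein-coupled family. The chemokines CXCL1, CXCL2, CXCL3, CXCL5 and CXCL8 act on the neutrophil receptor CXCR2. CCL2 attracts monocytes through CCR2, and CCL20 attracts CCR6-bearing lymphocytes and dendritic cells. In keratinocytes many of these genes are induced through NF-kB by interleukin-1, tumour necrosis factor and interleukin-17. ACKR3, formerly CXCR7, binds CXCL12 and CXCL11, couples to arrestins and not to classical G-protein signalling, and lowers the amount of free chemokine by internalizing it.

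Values are FPKM, fragments scaled to transcript length and library total. Between 11200 and 11292 genes reached 1 FPKM per library, and steps among low values put the libraries at about 45650000 to 52700000 reads. STUB1 itself measured 23.2 ± 1.55 FPKM in the knockout and 44.1 ± 7.67 FPKM in the control (SD, n = 3 each); 983 of its 2316 exonic bases overlap JMJD8 on the opposite strand, and with no stated strand setting reads there cannot be told apart. Control 3 stood apart, with Pearson correlations across genes of 0.986 and 0.988 to the other controls, where those 2 reached 0.998 with each other and knockout libraries 0.996 to 0.999 (the lowest and highest pairs). Of 8 keratinocyte markers 7 averaged at least 1 FPKM, their sum lying at 619 to 628 FPKM in knockout libraries and 483 to 526 FPKM in control libraries; its part in the results below was not tested. The list did not move one way: KRT5 and KRT6A rose (log2 values 0.82 and 0.90; limma, Benjamini-Hochberg adjusted p = 0.000267 and 8.98e-05), PERP fell (-0.49, adjusted p = 0.00946), and TP63, CDH1, DSP and ITGB4 did not pass. KRT14, a basal keratin, was the exception, with 0.213 ± 0.0633 FPKM in the knockout and 0.26 ± 0.0608 FPKM in the control. Sequence that keratin genes share with other genes was not examined, so this low value does not show that the cells lack KRT14. The leukocyte list, with 1 of 8 genes at 1 FPKM or more, summed to 22.9 to 25.6 FPKM in knockout libraries and 21.6 to 22.8 FPKM in control libraries, nearly all of it CD68, a lysosomal protein, with the pan-leukocyte marker PTPRC averaging 0 FPKM in the knockout and 0.00567 FPKM in the control. Fibroblast markers summed to at most 0.562 FPKM in any library (DCN at 0), endothelial markers to at most 3.06 FPKM (KDR at 0) and melanocyte markers to at most 7.66 FPKM (TYR at 0). In bulk RNA, fewer cells making a transcript and less of it per cell cannot be told apart.

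Most neutrophil-attracting members sit together. The genes CXCL8, CXCL1, CXCL5, CXCL3 and CXCL2 lie in that order on chromosome 4 between 73740506 and 74099293 (GENCODE 29, GRCh38). The others are CCL20 (227805739 to 227817564) and ACKR3 (236567787 to 236582358) on chromosome 2, CXCL14 (135570679 to 135579279) on chromosome 5, and CXCL16 (4733526 to 4739922) and CCL2 (34255218 to 34257203) on chromosome 17. RefSeq promoter sequences, reaching from 250 bases before to 50 bases after the gene start, were at hand for 7 members. A kB-like motif, GGNNNTTCC on either strand, was found in 6 of these 7 promoters and in 20.1% of 35116 human promoters. The stretches around it are printed to show how alike the elements of the high and the barely detected members are. Each is 80 bases long, on the gene's own strand in GRCh38.p14, with kB-like matches in capitals.
CXCL1, chr4:73869304-73869383, plus strand: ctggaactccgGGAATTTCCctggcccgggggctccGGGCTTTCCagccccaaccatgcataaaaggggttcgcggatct
CXCL2, chr4:74099205-74099284, minus strand: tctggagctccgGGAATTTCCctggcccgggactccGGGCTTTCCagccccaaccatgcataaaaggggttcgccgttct
CXCL3, chr4:74038699-74038778, minus strand: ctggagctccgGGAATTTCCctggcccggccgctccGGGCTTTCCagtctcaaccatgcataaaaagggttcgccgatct
CXCL5, chr4:73998724-73998803, minus strand: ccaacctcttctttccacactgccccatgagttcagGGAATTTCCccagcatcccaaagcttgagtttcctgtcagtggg
CXCL8, chr4:73740442-73740521, plus strand: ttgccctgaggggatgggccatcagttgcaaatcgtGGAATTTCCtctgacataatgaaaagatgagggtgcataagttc
CCL20, chr2:227813727-227813806, plus strand: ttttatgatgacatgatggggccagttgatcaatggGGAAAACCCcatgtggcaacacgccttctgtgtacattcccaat

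Distances are from the RefSeq start, which differs from the GENCODE gene boundary given above for all of these genes but CXCL1, so that the matches of CXCL2, CXCL3, CXCL5 and CCL20 lie inside the GENCODE intervals. The letters GGAATTTCC stood 77 to 91 bases before that start in all 5 chromosome 4 members, and a further match, GGGCTTTCC, stood 53 bases before it in CXCL1, CXCL2 and CXCL3. The reverse of GGAATTTCC also fits the motif, so it counts on both strands. The AP-1-like letters TGANTCA, found in 7.71% of promoters, were present in CXCL8 and CXCL14, and TATAAA, found in 11.5%, in CXCL8 and CCL20. The CXCL14 window held no kB-like match. A match describes letters and shows no binding.

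**Figure D1:**
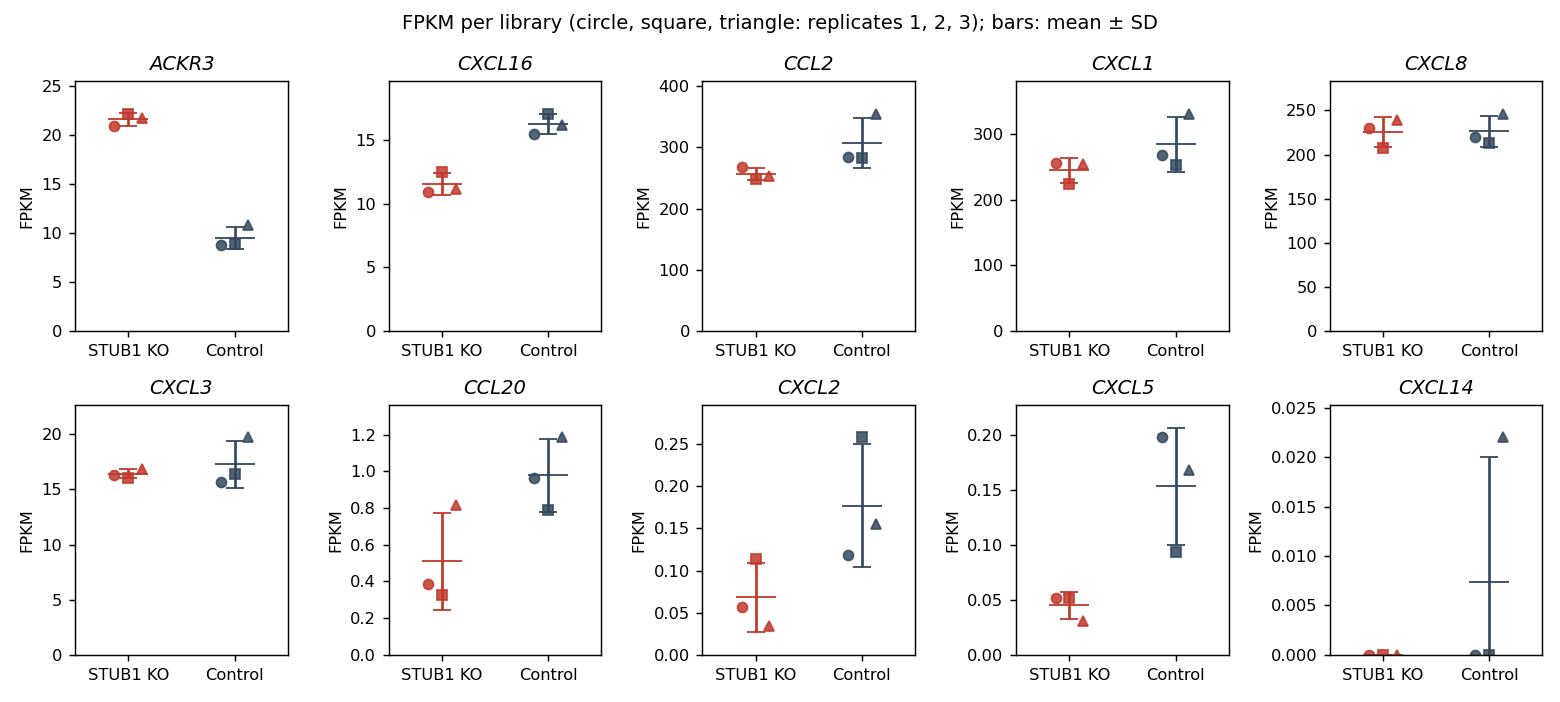
FPKM of each member in every library, STUB1 knockout on the left and control on the right, with an axis of its own starting at 0 for each gene; bars give the mean ± SD (n = 3). ACKR3 lies between 20.8 and 22.1 FPKM in the knockout and between 8.80 and 10.8 FPKM in the control, CXCL16 is lower in each knockout library, and control 3 (triangle) is the highest control for CCL2, CXCL1, CXCL8 and CXCL3.

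ACKR3 was the member that rose. It measured 20.8, 22.1 and 21.7 FPKM in knockout libraries 1 to 3, against 8.80, 8.87 and 10.8 FPKM in control libraries 1 to 3. Every knockout library lay well above every control library, and the knockout mean of 21.6 ± 0.664 FPKM was 2.27-fold the control mean of 9.49 ± 1.14 FPKM (SD, n = 3 each). On the log2(FPKM + 1) scale ACKR3 gained 1.11 (SE 0.0883, 95% interval 0.91 to 1.31), with a Benjamini-Hochberg adjusted p = 0.000121 from limma over 11262 genes. An exact two-sided permutation test of the FPKM gave p = 0.1, the smallest that 3 against 3 allows. In that fit 22.9% of tested genes changed, 9.58% on the higher side. At least 2-fold changes on that scale were called for 0.364%, and 0.186% (21 genes) rose that far, ACKR3 among them. Without control 3, the highest control, the log2 value was 1.20.

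The chemokine ligands of ACKR3 were at or near 0. CXCL12 and the receptor CXCR4, which shares that ligand, were listed at 0 in all 6 libraries. CXCL11, the other chemokine ligand, averaged 0.004 FPKM in the knockout and 0.0233 FPKM in the control. ADM, encoding the peptide hormone adrenomedullin, which ACKR3 can scavenge in mouse, rose to 28.7 ± 1.16 FPKM in the knockout, against 20.5 ± 3.82 FPKM in the control (log2 fold change 0.48; limma, Benjamini-Hochberg adjusted p = 0.0218). Dropping any 1 knockout library removed the ADM call, at adjusted p values of 0.0604 to 0.114, and so did testing with no filter on low values (adjusted p = 0.053). ARRB2, encoding beta-arrestin 2, fell to 8.16 ± 0.935 FPKM in the knockout, against 11.0 ± 0.484 FPKM in the control (log2 fold change -0.39, adjusted p = 0.0149). Without knockout 1 its adjusted p was 0.0611, and without knockout 3 it was 0.0816. Of the 13 genes listed as atypical receptors and ACKR3 partners, 4 were tested, of which 1 rose, 1 fell and 2 did not pass. The share called was 50%, on 4 genes, beside 22.9% of all tested genes. ACKR4, a scavenger of other chemokines, measured 1.53 ± 0.0794 FPKM in the knockout and 1.24 ± 0.106 FPKM in the control (adjusted p = 0.084), and ACKR1 was listed at 0 throughout.

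The genes whose pattern over the 6 libraries lay closest to that of ACKR3, by Pearson's r on log2(FPKM + 1), were KRT6B, PDZK1IP1 and PHGDH, at 0.999 each. KRT6B, a stress-induced keratin with near-identical paralogs that make its level uncertain, averaged 3.18 FPKM in the knockout and 0.674 FPKM in the control. PDZK1IP1, a small membrane protein, averaged 64.0 FPKM in the knockout and 24.2 FPKM in the control. PHGDH, the first enzyme of serine synthesis, averaged 36.5 FPKM in the knockout and 24.4 FPKM in the control. The 6 points form 2 groups by genotype, so r describes mainly the step between them.

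CXCL16 was the tested chemokine that fell. Unlike the other chemokines here it is made as a transmembrane protein, which serves as an adhesion ligand for CXCR6 and is released by the proteases ADAM10 and ADAM17. It measured 10.9, 12.5 and 11.2 FPKM in the knockout libraries, against 15.5, 17.1 and 16.2 FPKM in the control libraries. The groups did not overlap, and the knockout mean of 11.6 ± 0.854 FPKM stood at 71.1% of the control mean of 16.3 ± 0.793 FPKM (SD, n = 3 each). CXCL16 fell by 0.46 on the log2 scale (SE 0.0785, 95% interval -0.64 to -0.28), with an adjusted p = 0.00415 by limma with Benjamini-Hochberg adjustment and an exact two-sided permutation p = 0.1. CXCL16 shares 85 of its 2794 exonic bases with MED11 on the opposite strand. MED11 had a log2 value of -0.24 (adjusted p = 0.14). ADAM10 averaged 18.1 ± 1.29 FPKM in the knockout and 18.2 ± 1.22 FPKM in the control (adjusted p = 0.93), and ADAM17 18.8 ± 0.31 FPKM in the knockout and 20.4 ± 1.22 FPKM in the control (adjusted p = 0.269). Of the 10750 exonic bases of ADAM17, 1323 overlap IAH1 on the opposite strand, where reads cannot be told apart without a stated strand setting. CXCR6 averaged 0.071 FPKM in the knockout and 0.0813 FPKM in the control.

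**Figure D2:**
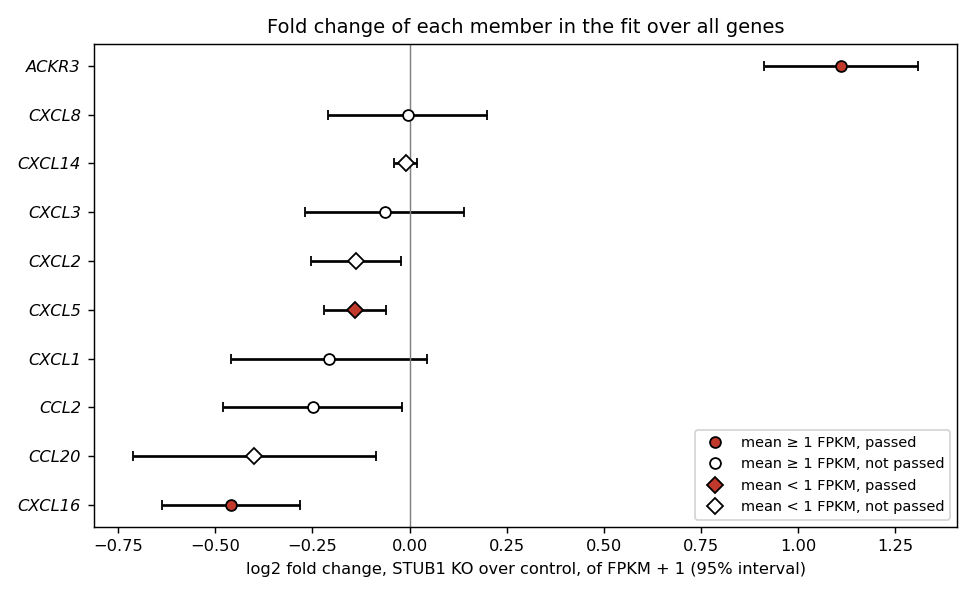
Log2 fold change of FPKM + 1, STUB1 knockout over control, with its 95% interval from limma, for the 10 members ordered by value; diamonds mark the 4 members under a mean of 1 FPKM, which were read from a fit with no filter. Filled symbols passed at an adjusted p of 0.05: ACKR3 at 1.11 on the higher side, CXCL16 at -0.46 and CXCL5 at -0.14 on the lower side.

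The most abundant chemokines were CCL2, CXCL1 and CXCL8, which ranked 156, 161 and 194 among 20014 genes by mean FPKM. Together they made up 95.9% to 96.5% of the summed FPKM of the 9 chemokines in knockout libraries and 95.6% to 96.1% in control libraries. None of these 3 passed, nor did CXCL3. With ACKR3 and CXCL16, this made 1 of 6 tested members higher and 1 lower, beside 9.58% of all tested genes higher and 13.3% lower; 2 called of 6 is not a result about the members as a set.

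CCL2, the monocyte attractant, measured 268, 249 and 254 FPKM in the knockout libraries, against 284, 283 and 355 FPKM in the control libraries. The groups did not overlap, but control 3 lay far above the other controls. The knockout mean was 83.6% of the control mean (log2 fold change -0.25, SE 0.102, 95% interval -0.48 to -0.02; limma, Benjamini-Hochberg adjusted p = 0.105; exact two-sided permutation p = 0.1). Non-overlap was found for 45.6% of tested genes, and for 25.3% with the knockout on the lower side. Without control 3 the difference was smaller, -0.14, and passed (adjusted p = 0.0444), and with array weights it was -0.16 and passed (adjusted p = 0.00653). Calls were common in both fits: 40.1% of all tested genes without control 3, and 6437 of 11262 with array weights. After a correction for GC content and length it was -0.10 (adjusted p = 0.212).

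CXCL1, the founding growth-related chemokine of the neutrophil group, measured 256, 223 and 254 FPKM in the knockout libraries, against 268, 253 and 330.4 FPKM in the control libraries. The groups overlapped, since control 2 lay below knockout 1 and 3. The difference of -0.21 on the log2 scale did not pass (SE 0.112, 95% interval -0.46 to 0.05; adjusted p = 0.205 by limma), and it was -0.09 without control 3.

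CXCL8, interleukin-8, measured 230.0, 207 and 239 FPKM in the knockout libraries, against 220.0, 213 and 246 FPKM in the control libraries. The groups overlapped throughout. The log2 difference was -0.01, with an interval of -0.21 to 0.20 (adjusted p = 0.971 by limma). CXCL8 had the lowest GC content of the members, 35.9%, beside 36.9% in CCL20, 37.6% in CXCL5 and 46.1% to 56.3% in the other 7. After the correction for GC content and length its log2 value was 0.33 and passed (limma, Benjamini-Hochberg adjusted p = 0.00387, and 0.0131 with the replicate block), in a fit where 28.1% of 11177 genes changed and 13.7% rose.

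CXCL3 measured 16.3, 16.0 and 16.8 FPKM in the knockout libraries, against 15.7, 16.4 and 19.7 FPKM in the control libraries. Control 3 again was highest and the other 5 libraries lay between 15.7 and 16.8 FPKM. The log2 difference was -0.06 (SE 0.0906, 95% interval -0.27 to 0.14; adjusted p = 0.635 by limma), and 0.03 without control 3.

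Ordered by FPKM, which is scaled to length, the members fell into separate tiers, and the middle tier changed its order. CCL2 and CXCL1 overlapped in both groups, as did CXCL1 and CXCL8 in the knockout; in the control CXCL1 lay above CXCL8. In the knockout ACKR3 came next, above CXCL3 (16.0 to 16.8 FPKM), which lay above CXCL16 (10.9 to 12.5 FPKM), with no overlap between neighbours. In the control CXCL3 and CXCL16 overlapped, and ACKR3 lay below both. CCL20, CXCL2 and CXCL5 followed under a mean of 1 FPKM in both groups, CXCL2 and CXCL5 overlapping in the knockout and in the control, and CXCL14 came last.

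Of the 4 members under the filter of 1 FPKM, CXCL5 passed in a fit with no filter, where 15.3% of 16782 genes changed and 9% fell. CXCL5, an epithelial neutrophil attractant, measured 0.052, 0.052 and 0.031 FPKM in the knockout libraries, against 0.198, 0.094 and 0.168 FPKM in the control libraries. Every knockout library was below every control library, at about 4 to 6 estimated reads per knockout library and 12 to 23 per control library. The knockout mean was 29.3% of the control mean, or -0.14 on the log2(FPKM + 1) scale, which understates low genes (limma, Benjamini-Hochberg adjusted p = 0.0359). The call was lost in the same direction under 7 of 16 alternatives: without any 1 of the libraries other than control 2 (adjusted p between 0.0804 and 0.141), with median centring (0.0564) and with no intensity trend (0.0731). After the GC content and length correction the value turned to 0.07 (adjusted p = 0.401).

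CXCL2 measured 0.057, 0.114 and 0.034 FPKM in the knockout libraries, against 0.118, 0.258 and 0.155 FPKM in the control libraries. The highest knockout library lay just under the lowest control library, on about 3 to 8 estimated reads per knockout library and 8 to 20 per control library. The difference missed the threshold (log2 fold change -0.14, SE 0.0481, adjusted p = 0.105 by limma with Benjamini-Hochberg adjustment). It passed with the replicate number as a block (adjusted p = 0.0291) and with array weights (adjusted p = 0.0219), which called 6437 of the 11262 genes above the filter. With the block and the GC content and length correction together it did not pass (adjusted p = 0.0714).

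CXCL2 is a close copy of CXCL1 and CXCL3, as the stretch of coding sequence in which the 3 genes are most alike shows. It holds bases 184 to 243 of the coding sequence, counted from the start codon (GENCODE 29, chromosome 4), with bases that differ from CXCL1 in capitals.
CXCL1: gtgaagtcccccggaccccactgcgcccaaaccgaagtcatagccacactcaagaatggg
CXCL2: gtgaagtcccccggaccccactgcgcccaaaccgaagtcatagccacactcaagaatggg
CXCL3: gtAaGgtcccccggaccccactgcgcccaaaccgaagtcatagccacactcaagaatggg

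CXCL1 and CXCL2 had 0 differences over these 60 bases and CXCL3 had 2. Over the whole coding sequence of 321 bases, 93.5% of CXCL2 bases and 90.7% of CXCL3 bases were identical to CXCL1. Across the transcript, 9.24% of 50-base windows of CXCL2 also occurred in another gene's transcript, against 5.73% for CXCL1 and 5.26% for CXCL3. Reads from such windows may have been shared or dropped in the authors' counting, so the split between these 3 genes is uncertain there. CXCL16 shared 3.04% of its windows, most often with MED11, and CXCL14 shared 2.39%. CXCL5 shared 1.12%, all with GLYR1, and the same uncertainty holds for reads there. No window of CXCL8, CCL20, CCL2 or ACKR3 was shared.

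CCL20, the CCR6 ligand, measured 0.386, 0.329 and 0.814 FPKM in the knockout libraries, against 0.961, 0.790 and 1.19 FPKM in the control libraries. Knockout 3 overlapped the control range and knockout 1 and 2 lay below it. The knockout mean was 52.1% of the control mean, and the difference missed the threshold (log2 fold change -0.40, SE 0.13; limma, Benjamini-Hochberg adjusted p = 0.089; exact two-sided permutation p = 0.2). It passed with the replicate block (adjusted p = 0.0192) and without knockout 3 (log2 value -0.54, adjusted p = 0.0438). With the GC content and length correction the value was -0.17 and did not pass (adjusted p = 0.22, and 0.145 with the block), nor did it with array weights (-0.17, adjusted p = 0.228). CXCL14, a chemokine of normal epidermis, was listed at 0 in 5 libraries and at 0.022 FPKM in control 3, about 2 estimated reads.

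**Figure D3:**
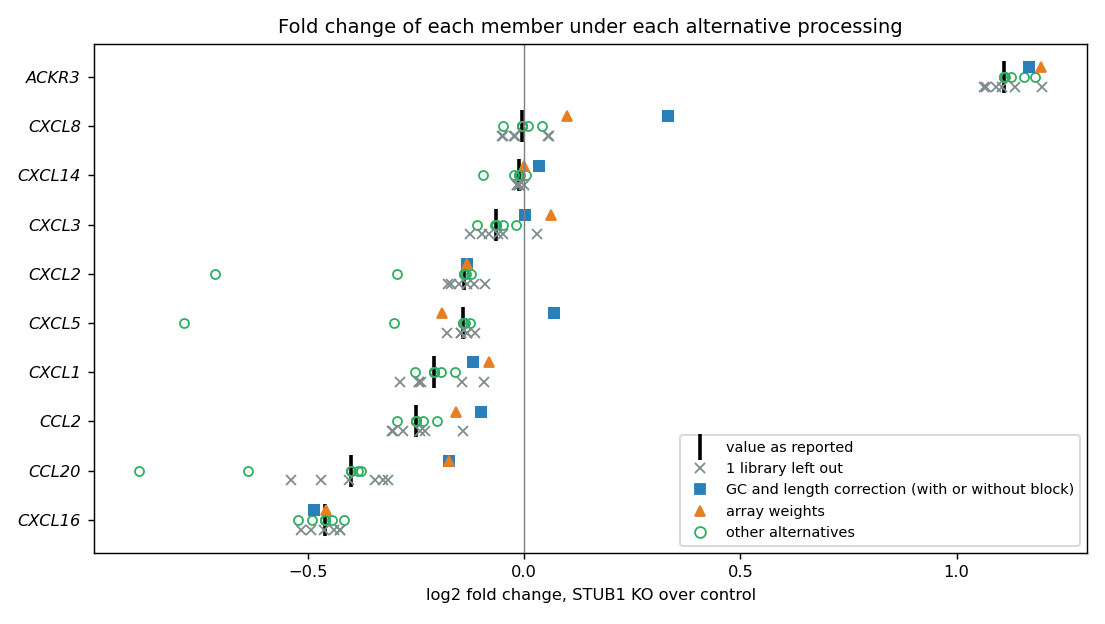
Log2 fold change of each member, STUB1 knockout over control, as reported (black bar) and under each alternative processing. ACKR3 stays between 1.06 and 1.20 and CXCL16 between -0.52 and -0.42, whereas CXCL8 moves to 0.33 after the GC content and length correction and CXCL2, CXCL5 and CCL20 move furthest with a pseudocount of 0.1.

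The members also differ in a motif of rapid mRNA turnover. The AU-rich letters TATTTAT occurred 8 times in the 3' untranslated region of CXCL2, 4 times each in CXCL1 and CXCL8, 3 times each in CXCL3 and CXCL5 and 1 time in CCL20. None occurred in CXCL14, CXCL16, CCL2 or ACKR3. Of 19083 coding genes, 27.5% held at least 1 and 4.95% at least 3, as 5 of the 10 members did. These regions ran from 376 bases in CCL2 to 1995 bases in CXCL5, against a median of 810 bases over all genes. Both tested members that changed, ACKR3 and CXCL16, were without these letters, as were CCL2, CXCL14 and most coding genes. CXCL5, which passed in the fit with no filter, held 3. A link between the letters and a change was not tested.

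**Figure D4:**
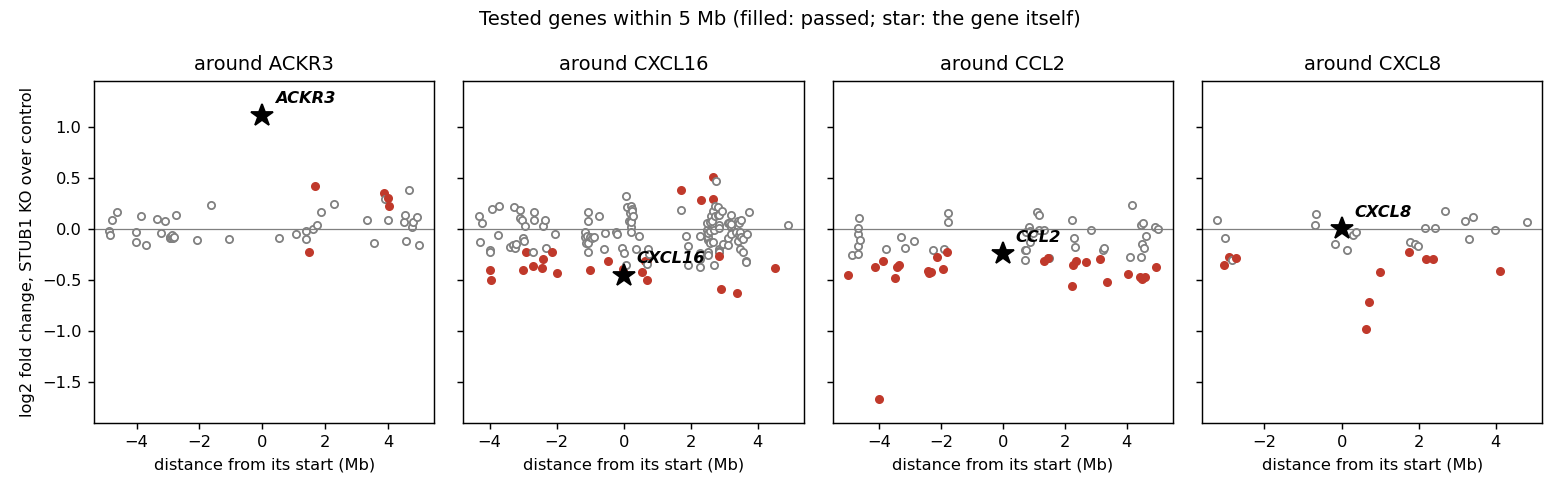
Log2 fold change of tested genes, STUB1 knockout over control, by distance in Mb from the start of ACKR3, CXCL16, CCL2 and CXCL8; filled points passed and the star is the gene itself. No neighbour of ACKR3 reached its value, while CCL2 sits among neighbours that mostly lie below 0.

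Genes near the members were set beside them. Within 5 Mb of ACKR3, 47 other genes were tested, with a median log2 value of -8.6e-05; 4 were higher, 1 was lower and none exceeded ACKR3. Around CXCL16, 150 genes had a median of -0.07, 4 higher and 20 lower, and 146 of the 150 lay above CXCL16. Its nearest tested genes by start were lower as well. ARRB2 was at -0.39 (limma, Benjamini-Hochberg adjusted p = 0.0149), while MED11 at -0.24, PSMB6 at -0.35 and PELP1 at -0.18 did not pass. PLD2, the next in distance, was at 0.32 and did not pass. Around CCL2, 70 genes had a median of -0.21, with 0 higher and 26 lower, where 9.58% of all tested genes were higher and 13.3% lower. CCL2, at -0.25, lay below 40 of those 70. Around the chromosome 4 cluster the median was -0.12 to -0.13, with 0 higher and 10 lower at each member. CXCL1 lay below 20 of its 31 neighbours and CXCL8 below 9 of its 30. The part of the neighbourhood in the values of CCL2 and CXCL16 was not tested. Of the other ligand genes in the chromosome 4 cluster, PF4 and PF4V1 were listed at 0 throughout, and CXCL6 and PPBP at 0 in 5 of 6 libraries.

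The other chemokine ligands gave little signal. Of 35 further ligands, 18 were listed at 0 in every library and 1 reached a mean of 1 FPKM. That gene, CCL26, an eosinophil attractant, fell to 0.82 ± 0.0772 FPKM in the knockout, against 1.40 ± 0.378 FPKM in the control (log2 fold change -0.39; limma, Benjamini-Hochberg adjusted p = 0.0351). With a knockout mean under 1 FPKM, CCL26 met the filter through its control values alone. Its call was lost under 5 of 16 alternatives, among them those without any 1 knockout library and the fit with no filter (adjusted p = 0.0731). In that fit 1 of 17 ligands was called, CCL5, beside 15.3% of 16782 genes. CCL5 measured 0.218 ± 0.0316 FPKM in the knockout, against 0.421 ± 0.089 FPKM in the control, with no overlap (limma, Benjamini-Hochberg adjusted p = 0.0268). The interferon-induced CXCL10 averaged 0 FPKM in the knockout and 0.0123 FPKM in the control.

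Receptors through which the members act on leukocytes were at or near 0. CXCR2 averaged 0.063 FPKM in the knockout and 0.0703 FPKM in the control. CCR6 averaged 0.00567 FPKM in the knockout and 0.03 FPKM in the control, and CCR2 was listed at 0 in every library. The sole tested receptor of 18 was CXCR5, the CXCL13 receptor, which rose to 6.73 ± 0.348 FPKM in the knockout, against 5.30 ± 0.196 FPKM in the control (log2 fold change 0.29; limma, Benjamini-Hochberg adjusted p = 0.0202). CXCR5 shares 3925 of its 4431 exonic bases with BCL9L on the opposite strand, and without a stated strand setting these reads cannot be told apart. The call was also lost under 5 of 17 alternatives.

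**Figure D5:**
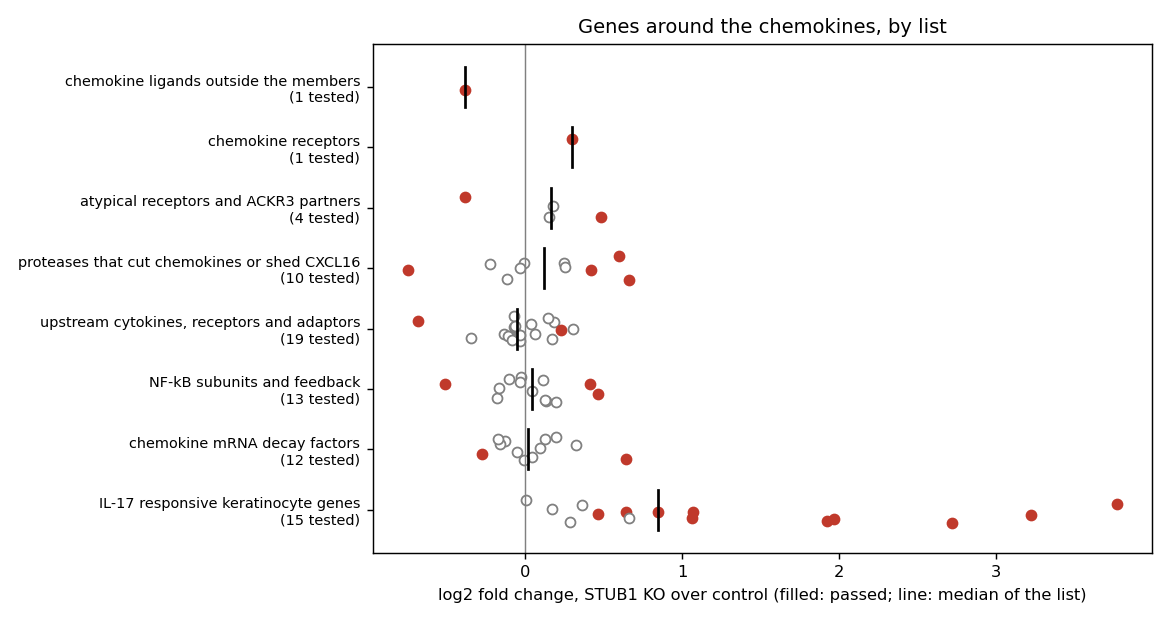
Log2 fold change, STUB1 knockout over control, of the tested genes in 8 lists around the chemokines; filled points passed and the black line is the median of the list. The interleukin-17 list has its median at 0.84 with 10 of 15 genes higher, and the medians of the lists of proteases, upstream cytokines, NF-kB genes and decay factors lie between -0.05 and 0.12.

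A list of proteases that trim or release chemokines, or that activate other proteases, held 10 tested genes. Of these 10, 3 rose, 1 fell and 6 did not pass. That is 40% called beside 22.9% of all tested genes, with a median log2 value of 0.12 beside -0.01. CTSB, the lysosomal protease cathepsin B, rose to 43.3 ± 0.555 FPKM in the knockout, against 27.0 ± 0.587 FPKM in the control (log2 fold change 0.66; limma, Benjamini-Hochberg adjusted p = 0.000336). FURIN, which activates proproteins including matrix metalloproteinases, rose 1.53-fold (log2 fold change 0.59, adjusted p = 0.00385), and MMP14, a membrane-bound metalloproteinase that can inactivate chemokines by cleavage, rose 1.34-fold (0.42, adjusted p = 0.00532). MMP1, the interstitial collagenase, fell to 0.538 ± 0.06 FPKM in the knockout, against 1.59 ± 0.245 FPKM in the control (log2 fold change -0.75, limma adjusted p = 0.000546). With a knockout mean under 1 FPKM, MMP1 met the filter through its control values alone. It also passed in the fit with no filter (limma adjusted p = 0.00296). Of its exonic bases, 150 overlap WTAPP1 on the opposite strand.

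Of 19 tested upstream cytokines, receptors and adaptors, 1 rose, 1 fell and 17 did not pass (10.5% called beside 22.9% of all tested genes, median -0.05). IL1RN, the interleukin-1 receptor antagonist, fell to 1.74, 1.80 and 1.69 FPKM in the knockout libraries, against 3.11, 4.03 and 3.15 FPKM in the control libraries (log2 fold change -0.69; limma, Benjamini-Hochberg adjusted p = 0.00124). The agonists it competes with were abundant. IL1A averaged 254 ± 18.5 FPKM in the knockout and 267 ± 6.8 FPKM in the control (adjusted p = 0.536), and IL1B 264 ± 1.93 FPKM in the knockout and 233 ± 4.75 FPKM in the control (adjusted p = 0.091). IL17RA, the shared interleukin-17 receptor chain, rose to 4.29 ± 0.0812 FPKM in the knockout, against 3.53 ± 0.219 FPKM in the control (log2 fold change 0.22, adjusted p = 0.0477), a call lost under 11 of 16 alternatives, with the replicate block among them (adjusted p = 0.0594).

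NF-kB subunits and feedback genes had 2 of 13 higher, 1 lower and 10 not passed (median 0.04). The 23.1% called is close to the 22.9% of all tested genes. NFKBIZ, encoding a nuclear cofactor that some chemokine genes require, had a log2 value of 0.46 (limma, Benjamini-Hochberg adjusted p = 0.00724), BCL3, a related cofactor, 0.41 (adjusted p = 0.0125) and NFKBIE, a cytoplasmic inhibitor, -0.51 (adjusted p = 0.0195). NFKBIA, the inhibitor that NF-kB itself induces, averaged 74.0 ± 1.49 FPKM in the knockout and 76.1 ± 12.8 FPKM in the control (adjusted p = 0.871). BCL3 missed the threshold without knockout 2 (adjusted p = 0.0585) or 3 (0.0547) and with the block and the GC content and length correction together (0.0512). NFKBIE missed it without knockout 1 (0.0744) or 2 (0.0986) and with no filter (0.0555).

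Among 12 factors that control decay of chemokine mRNA, 1 rose, 1 fell and 10 did not pass (16.7% called beside 22.9% of all tested genes, median 0.01). ZC3H12A, encoding regnase-1, a ribonuclease that degrades inflammatory mRNAs, rose to 38.1, 41.3 and 36.8 FPKM in the knockout libraries, against 24.8, 26.7 and 22.1 FPKM in the control libraries (log2 fold change 0.64; limma, Benjamini-Hochberg adjusted p = 0.00146). HNRNPD, which encodes the AU-rich element binding protein AUF1, fell to 82.0% of control (log2 fold change -0.28, adjusted p = 0.0326), a call that did not hold without control 1 or any 1 knockout library, nor after the GC content and length correction (adjusted p from 0.0675 to 0.126).

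Of 16 genes that interleukin-17 induces in keratinocytes, 15 were tested, of which 10 rose and 5 did not pass (66.7% called beside 22.9% of all tested genes, median 0.84). This list includes genes already known to be higher in these libraries and is no independent evidence of direction. S100A7 and S100A9, S100 alarmins of inflamed epidermis, had log2 values of 3.77 and 3.23, and DEFB4A, a beta-defensin with a near-identical copy, and PI3, the elastase inhibitor elafin, had 1.97 and 1.92 (limma, Benjamini-Hochberg adjusted p at most 8.15e-05 for these 4). The same cytokine is known to induce CXCL1, CXCL8 and CCL20, for which no higher call was made except that of CXCL8 after the GC content and length correction. Without control 3 all 15 passed on the higher side and no member chemokine did, in a fit that called 40.1% of all tested genes and 18.7% as higher. The part of interleukin-17 signalling in these values was not tested. IL36G, NFKBIZ and ZC3H12A stand in this list and in another as well. Over the 8 lists, with no gene counted again, 17 of 72 tested genes rose and 6 fell, 31.9% called beside 22.9% of all genes. With the replicate block 28 of the 72 were called, beside 27.1% of all genes: CTSD, SAA2, ZFP36, OSMR, CSF2 and CEBPD were added (adjusted p 0.0110 to 0.0482) and IL17RA was lost.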

How the data were processed

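The authors deposited 1 FPKM value for each gene and library, a read measure per length and per library total. Per the submitters' processing notes, the build was GRCh38.p13 and the tools, listed with no role or order, were HISAT2 2.0.5 and Trimmomatic 0.36, Cufflinks, and both edgeR 3.6.3 and featureCounts 1.6.3. Annotation, filters, strand setting and scaling: not given in the sources used here. FPKM are no counts, and no count test was run. Read numbers are estimates: among 429 to 467 low values in each library, the share within 0.15 of whole reads was 57.1% to 62.5%, too few to recover counts or to give a counting interval.

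Genes averaging at least 1 FPKM (11262) were tested on log2(FPKM + 1) with limma 3.58.1 (R 4.3.3), genotype as sole term, an intensity trend and Benjamini-Hochberg adjustment at 0.05. Members under the filter came from a fit of all 16782 genes above 0. The fit was also run on simulated data with independent normal noise for each gene and library. Those data held neither an outlying control 3 nor a likeness of same-numbered libraries, so they cannot show how the fit handles these. Symbols came from an Ensembl table (19991) or GENCODE 29 (23), and lengths and GC content from GENCODE 29. The GC content and length correction removed, per library, a spline with 3 degrees of freedom for each.

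Same-numbered libraries deviated together (r = 0.375, 0.15 and 0.188, all above 0.1). Libraries of unlike number were not compared in this way, and no label states a shared day, so a pairing is not established. A fit with the replicate number as a block was run as an alternative. Reported values come from the fit without the block, and blocked values stand where they change a call. The members, lists and tests were chosen with earlier results of these data known. Named beside the members are STUB1, up to 4 called genes per list with the smallest p, and the 3 genes most like the member of largest change; other genes were named for their role after their values were seen. Figures were drawn with matplotlib 3.10.9 and tables made with pandas 2.3.3 under Python 3.11.15.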

Additional observations from a re-analysis of the deposited data

How the results depend on the processing

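ACKR3 and CXCL16 kept their direction and passed under all 17 alternatives, ACKR3 at 1.06 to 1.20 (adjusted p at most 0.00457) and CXCL16 at -0.52 to -0.42 (adjusted p at most 0.0289). CXCL1 stayed lower and did not pass under any, at -0.29 to -0.08. With the replicate block the CXCL2 value of -0.14 passed (adjusted p = 0.0291), as did CCL20 at -0.40 (0.0192); it changed no other member's call, and its changes among list genes are given above. Array weights gave passing values of -0.13 for CXCL2 and -0.16 for CCL2, and turned CXCL3 to 0.0616 and CXCL8 to 0.0991 without a call. After the GC content and length correction, with or without the block, CXCL3 was 0.0024, CXCL5 0.0698, CXCL14 0.035 and CXCL8 0.33, the last one passing. Median centring gave 0.0103 for CXCL8, 0.0051 for CXCL14 and -0.13 for CXCL5, which lost its call, as it did at -0.14 with no intensity trend. Scaling without mitochondrial genes gave 0.0424 for CXCL8.

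Leaving out 1 library gave ranges of -0.29 to -0.09 for CXCL1, -0.17 to -0.09 for CXCL2, -0.126 to 0.0296 for CXCL3, -0.18 to -0.11 for CXCL5, -0.0500 to 0.0568 for CXCL8, -0.54 to -0.31 for CCL20 and -0.31 to -0.14 for CCL2. The number of changed genes ranged from 1030 (without knockout 2) to 4521 (without control 3), with 1422, 1192 and 1500 without knockout 1, knockout 3 and control 1, and changed list genes from 16 to 38 (without control 3). Array weights called 6437 genes and 46 list genes, and the GC content and length correction 35 list genes beside 28.1% of 11177 genes. Higher genes made up 41.8% of calls, 29.1% as TPM and 49.1% scaled without mitochondrial genes. The causes were not tested. The 4 members under 1 FPKM rest on few estimated reads.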

Other observations

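Some list genes under the filter of 1 FPKM passed in the fit with no filter and were picked after their values were seen. Those given here are not all that passed. That fit, which also holds the genes above the filter, called 27 of 119 list genes, beside 15.3% of 16782 genes. The part of these genes in the values of the members was not tested. MMP13, a collagenase, measured 0.29, 0.142 and 0.241 FPKM in the knockout libraries, against 0.734, 0.84 and 0.915 FPKM in the control libraries (limma, Benjamini-Hochberg adjusted p = 0.00267). MMP2, a gelatinase that can cleave CXCL12, averaged 0.525 ± 0.0818 FPKM in the knockout and 1.02 ± 0.0466 FPKM in the control (adjusted p = 0.00406). TNF, a main inducer of these chemokines, averaged 0.132 ± 0.0386 FPKM in the knockout and 0.322 ± 0.009 FPKM in the control (adjusted p = 0.00446). IL1R1, the signalling receptor for interleukin-1, averaged 0.992 ± 0.108 FPKM in the knockout and 0.521 ± 0.0337 FPKM in the control (adjusted p = 0.00461).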
